A study of Homo sapiens with 3 samples.

Results

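The genes described here encode the machinery that moves new proteins into the endoplasmic reticulum (ER), attaches N-glycans to them, folds them and senses when folding fails. The 41 genes were given as a list of symbols, with no measured value in the rule, and all 41 were found in the deposited table, in 48 of its 29156 transcript rows and among 18877 symbols. The cells were A2780, a human line established from an undifferentiated ovarian tumour. The control library came from A2780 carrying the empty pBABE retroviral vector (1 library), and 2 further libraries came from A2780 populations stably expressing miR-181a, labelled p181a #1 (pool 1) and p181a #2 (pool 2). The submitters name the miR-181a populations polyclonal pools in one field and clones in another. Nothing states that they were separate cultures beyond this. The p-values below therefore reflect how far 2 libraries differ, together with a variance shared across genes. The difference between the 2 libraries may be technical. The vector group has no replicate, and miR-181a abundance was not analysed here. In bulk RNA, fewer cells of a type and less RNA per cell cannot be told apart.

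Proteins destined for secretion or membranes enter the ER through the Sec61 channel, where signal peptidase removes the leader and the oligosaccharyltransferase transfers a preformed sugar tree to asparagines. The lectins calnexin and calreticulin, the HSP70-type chaperone BiP (HSPA5) and its partners, and the protein disulfide isomerases then fold the chain. When unfolded protein accumulates, the membrane sensors IRE1 (ERN1), PERK (EIF2AK3) and ATF6 start the unfolded protein response, in which ATF6 and spliced XBP1 bind ER stress elements in the promoters of chaperone genes.

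Sequences of 2 kinds are shown, one because it is the agent added to the cells and one because it marks genes of the stress response. The first is the mature microRNA, with its seed (bases 2 to 8) in capitals, from RefSeq (GRCh38.p14).
hsa-miR-181a-5p: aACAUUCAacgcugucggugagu
Seed matches were searched in the 3′ UTR of the canonical GENCODE transcript of each gene on GRCh37, the assembly that hg19 names. A match was TGAATGT or GAATGTA, and TGAATGTA holds both. Of the 41 genes, 12 (29.3%) held at least 1 match, against 3222 of 12232 tested genes with an annotated 3′ UTR (26.3%). The median 3′ UTR length was 995 bases in the 41 genes and 1237 bases in the tested genes. The longest match, of 8 bases, was present in HSP90B1, HYOU1, DNAJC3 and ERO1L, and HSPA5 held a match of 7 bases. These 5 sites are given with the matched bases in capitals, each ending at the match, with GRCh37 coordinates.
HSP90B1 (chr12:104341608-104341629, plus strand): tttaacattcctcaTGAATGTA
HYOU1 (chr11:118915313-118915334, minus strand): gagagaccatggtgTGAATGTA
DNAJC3 (chr13:96446692-96446713, plus strand): tcacgcaactttgtTGAATGTA
ERO1L (chr14:53108601-53108622, minus strand): aaatatttgttggaTGAATGTA
HSPA5 (chr9:127998781-127998802, minus strand): aagaacttaagtctcGAATGTA
ERO1L held 2 further matches of 7 bases, and SEC62, SSR1, SSR3, RPN2, CANX, CALR and PDIA6 held 1 match of 7 bases each.

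The second is the ER stress element (ERSE), searched on both strands as CCAAT, any 9 bases and CCACG in RefSeq promoters from 250 bases before to 50 bases after a start site (GRCh38.p14). Promoters were matched for 37 of the 41 genes, and PDIA3, RPN1, SPCS1 and STT3B were not matched. The element was found in 6 of the 37 genes, namely HSPA5, HSP90B1, CALR, CANX, PDIA6 and XBP1. Over all promoters it was found in 25 of 27305 genes (0.0916%) and in 27 of 35116 windows (0.0769%). It is printed with 10 bases on each side, on the strand that carries the motif, with the fixed letters in capitals.
HSPA5 (chr9:125241381-125241419): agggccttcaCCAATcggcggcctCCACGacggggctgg
HSP90B1, first (chr12:103930206-103930244): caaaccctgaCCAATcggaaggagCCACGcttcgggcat
HSP90B1, second (chr12:103930311-103930349): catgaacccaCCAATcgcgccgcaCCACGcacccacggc
CALR (chr19:12938374-12938412): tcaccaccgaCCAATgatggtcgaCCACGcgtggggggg
CANX (chr5:179698768-179698806): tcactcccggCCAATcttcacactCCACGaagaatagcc
PDIA6 (chr2:10812843-10812881): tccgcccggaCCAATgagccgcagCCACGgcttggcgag
XBP1 (chr22:28800593-28800631): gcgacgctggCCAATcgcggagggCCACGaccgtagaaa
The related element ERSE-II (ATTGG, any 1 base and CCACG, both strands) was found in HYOU1 and SDF2L1 among the 37 genes. Over all promoters it was found in 19 genes (0.0696%) and in 19 windows (0.0541%). HYOU1 carried it 2 times.
HYOU1, nearer the start (chr11:119057264-119057294): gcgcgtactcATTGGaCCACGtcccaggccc
HYOU1, farther from the start (chr11:119057370-119057400): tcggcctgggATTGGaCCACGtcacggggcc
SDF2L1 (chr22:21642104-21642134): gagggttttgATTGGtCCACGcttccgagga
The element UPRE (TGACGTGG, both strands) was found in HYOU1, SEC62, SSR3, SSR4 and TXNDC5, and in HYOU1 it overlaps the farther ERSE-II. Over all promoters UPRE was found in 0.927% of genes and 0.729% of windows. A match is a description of the letters and shows no binding.

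Values are the authors' deposited coverage of each transcript, a median over 50 bp windows and so already per length, and fold means the difference of log2(coverage + 1) between a pool and the vector library. Summed over the rows used, coverage was 719263 to 907092 per library, and 12.8% to 32.3% of rows were listed at 0, the lowest share in vector cells. Read counts are not in these values, so depth is unknown and no counting error can be attached. Most markers of the labelled epithelial ovarian origin were at or near 0 in the pools, some of them in every library. Of 6 epithelial markers, CDH1 and KRT7 were at 0 in all 3 libraries, and EPCAM and KRT19 were at 0 in both pools only. KRT8 was at 27.0 in vector cells, 13.4 in pool 1 and 10.5 in pool 2, and KRT18 at 13.9, 2.38 and 4.91. The summed coverage of the list was 125 in vector cells and 15.4 to 15.8 in the pools. Of 5 ovarian carcinoma markers, WT1 was at 0 in all 3 libraries and PAX8, MUC16 and ESR1 in both pools only (sum 122 in vector cells, at most 0.140 in the pools). Of 5 immune markers LYZ was at 0 in all 3 libraries and PTPRC and CD3E in both pools only (sum 67.4 in vector cells, 2.37 to 2.72 in the pools), and of 4 endothelial markers VWF, KDR and CDH5 were (sum 220, at most 0.037). Of 6 plasma cell and secretory markers, all but SDC1 were at 0 in both pools, IGJ and IRF4 also in vector cells (sum 77.5, 72.3 to 102). The 6 fibroblast markers summed to 569 in vector cells, 1785 for pool 1 and 1453 for pool 2, and none was at 0 in both pools. COL3A1 and DCN made up most of that sum, and COL1A1 was lower in the pools, at 7.41, 0 and 0.706. The part of these markers in the folds below was not tested.

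As a group, the ER genes were covered more in the miR-181a pools than in vector cells. The highest mean folds were those of the glycan transfer genes DDOST, RPN1, DAD1 and RPN2 and of calnexin (CANX). Of the 41 genes, 40 passed the filter on low coverage (a mean above 2.44), each with a pool mean above it, and ERN1 did not. Of these 40, 32 were higher in both pools (44.6% of all 12552 genes tested were), 5 were lower in both (41.8% of all genes) and SEC61B, SEC62 and EIF2AK3 were split. The median log2 fold of the 40 genes was 0.68 in pool 1 and 0.45 in pool 2, a mean of 0.57, against 0.07 over all genes tested. Genes of high coverage sat above the vector library in general, and the ER genes are highly covered. Among the 2124 genes with a pool mean above 50 the median fold was 0.47 and 77.5% were higher in both pools. Of the 32 ER genes in that class, 29 were higher in both pools, 21 lay above the class median, and their own median was 0.67. XBP1 was the 1 of the 32 that was lower in both pools (7.53% of the class), and by limma none of the 32 rose (0.188% of the class) or fell (0.330%). Of the 8 ER genes with a pool mean of 50 or under, 3 were higher in both pools (37.8% of such genes) and 4 lower (48.8%). The pool mean sets both that class and the fold, so the class is not independent of the direction.

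By limma across all genes with Benjamini-Hochberg adjustment, no ER gene rose (1.00% of all genes did) and 2 fell (21.7% of all genes did). At an unadjusted p under 0.05, 6 were higher (5.39% of all genes were) and 2 lower (27.8%). The fit rests on 1 residual degree of freedom, taken from the spread between the pools, together with a variance shared across genes. An exact permutation of 3 libraries cannot go below p = 0.333. By size, 1 ER gene was at least 1 log2 unit higher in both pools (2.53% of all genes were) and 2 at least 1 unit lower (27.3%). Pool 1 exceeded pool 2 in all 41 genes, with a median difference of -0.25 (pool 2 minus pool 1, log2) in the 40 tested and -0.27 over all genes tested.

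**Figure D1:**
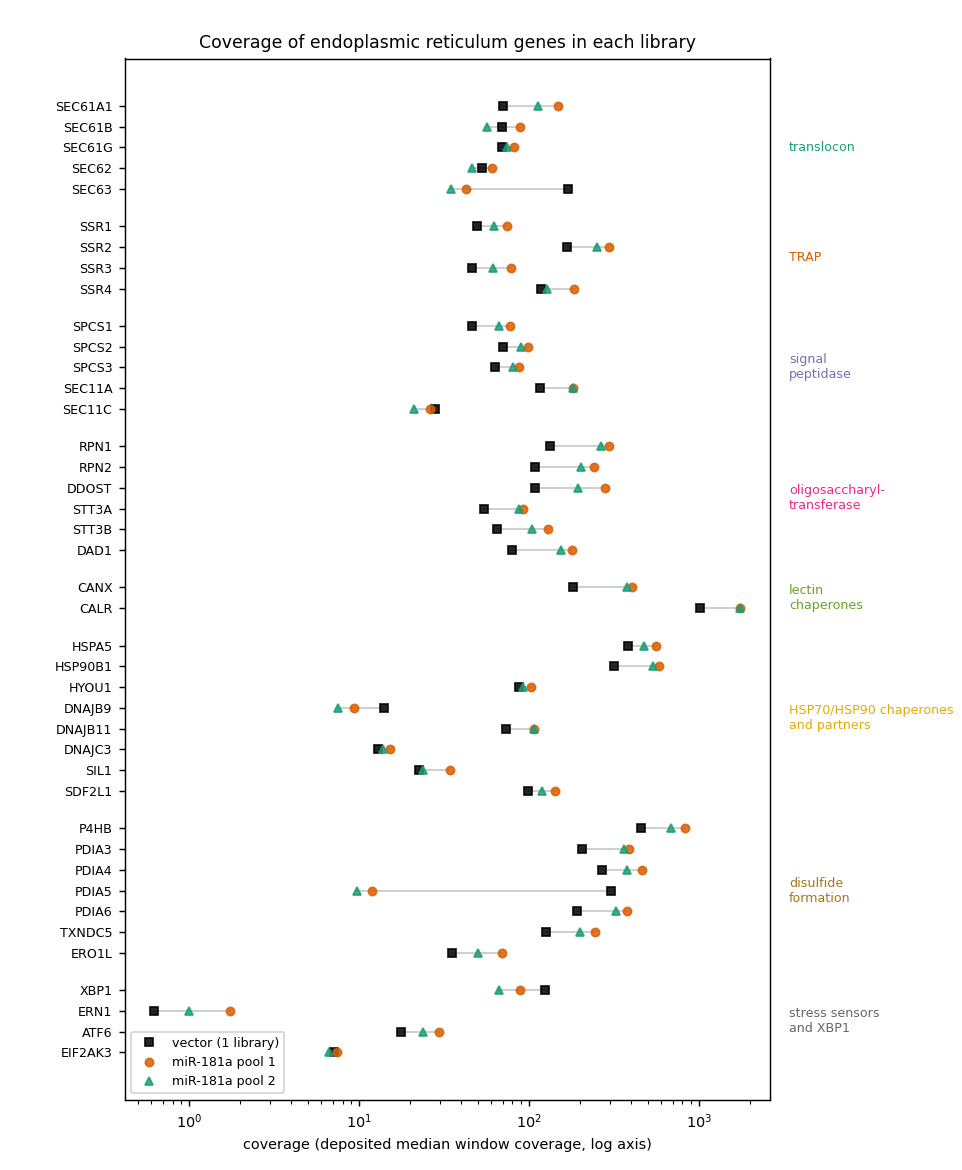
Deposited coverage (log axis) of the 41 ER genes, grouped by role, in vector cells (squares), pool 1 (circles) and pool 2 (triangles), with a grey line over the range. PDIA5 and SEC63 have vector values of 305 and 169 far to the right of their pools, and CALR has the highest coverage in every library.

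Translocation genes differed among themselves. SEC61A1, which encodes the pore of the channel (chromosome 3, 127770484 to 127790548 on GRCh37, as for all gene spans here), was at 70.1 in vector cells, 149 in pool 1 and 114 in pool 2. Both pools were above the vector library, but the fold of 0.88 (SE 0.28) did not pass limma (adjusted p = 0.195). The small channel subunits did not follow the pore. SEC61B was at 69.3 in vector cells, 88.1 in pool 1 and 56.7 in pool 2, so the vector value lay between the pools, and SEC61G was at 69.1, 81.9 and 74.5. Their folds were 0.03 and 0.17, neither past limma (adjusted p = 0.964 and 0.555). SEC62, a partner of the channel used by short secretory proteins, was at 52.7, 60.3 and 46.5, again with the vector library between the pools (fold 0.01, limma adjusted p = 0.989).

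SEC63, the J-domain protein that recruits BiP to the channel (chromosome 6, 108188960 to 108279412), was the exception in the group. Its coverage was 169 in vector cells, 42.4 in pool 1 and 34.9 in pool 2, so both pools were far below the vector library. SEC63 fell by 2.11 on the log2 scale (SE 0.23, limma adjusted p = 0.0399). The call was lost with no filter (adjusted p = 0.0555), with a pseudocount of 10 (0.0508) and with no variance trend (0.0695). Its vector value was 4.39 times the pool mean, and 2.41% of table rows with a pool mean of 10 to 50 had a vector value more than 4 times the pool mean. The part of this excess in the fall of SEC63 was not tested.

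The TRAP complex, which sits beside the channel and helps some signal sequences to open it, was uniform. SSR1, SSR2, SSR3 and SSR4 were all higher in both pools, with mean folds from 0.38 (SSR4) to 0.69 (SSR2), and none passed limma. SSR1 was at 49.3 in vector cells, 74.6 in pool 1 and 62.7 in pool 2, and SSR3 at 46.5, 78.7 and 61.7. SSR4 was at 117, 184 and 128, with pool 2 close to the vector library. The most covered of the 4, SSR2, was at 168 in vector cells, 294 in pool 1 and 252 in pool 2. After a shift of each pool by the median fold of genes above 50, described below, SSR1 and SSR4 turned to -0.0065 and -0.0884.

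Signal peptidase genes were also higher in the unscaled values, apart from one catalytic subunit. SPCS1, SPCS2, SPCS3 and the catalytic subunit gene SEC11A had folds of 0.62, 0.42, 0.41 and 0.64, and none passed limma. SPCS1, SPCS2 and SPCS3, accessory subunits, were at 46.4, 70.3 and 63.0 in vector cells and at 72.0 ± 7.88, 94.2 ± 6.97 and 84.1 ± 4.91 in the pools (SD, n = 2), and SPCS2 and SPCS3 turned to -0.0554 and -0.0622 after the shift. SEC11A was at 116 in vector cells, 181.2 in pool 1 and 180.4 in pool 2, and it passed limma with no variance trend (adjusted p = 0.0496). Its paralogue SEC11C was at 28.2, 26.3 and 20.9, lower in both pools, with a fold of -0.25 (limma adjusted p = 0.58) that turned to 0.16 with library medians set equal and to 0.0187 with quantile normalization.

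The oligosaccharyltransferase had the highest median fold of the 8 role groups. Each of the 6 subunit genes listed here was higher in both pools, also after each of the 3 scalings tried, and their median fold was 1.04. Further subunit genes, kept in another list described below, had folds from -0.0005 (MAGT1) to 0.82 (TUSC3). None passed limma with the filter of 2.44, though DDOST, RPN1, DAD1 and RPN2 did with a filter at the median coverage (adjusted p = 0.0161, 0.0232, 0.0247 and 0.0295). With that filter 402 of all 8368 genes tested rose. DDOST, a subunit needed for the stability of the complex (chromosome 1, 20978260 to 20988037), was at 109 in vector cells, 281 in pool 1 and 195 in pool 2, the highest mean fold of the 40 genes at 1.10 (SE 0.35, limma adjusted p = 0.198). RPN1, which presents substrates to the enzyme (chromosome 3, 128338812 to 128399918), was at 134, 297 and 266, a fold of 1.06 (SE 0.20, limma adjusted p = 0.0976). For both genes the pools lay well above the vector library, and the pools of DDOST were farther apart than those of RPN1.

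DAD1, a small subunit first found as a defender against cell death, was at 79.7 in vector cells, 179 in pool 1 and 154 in pool 2 (fold 1.05, limma adjusted p = 0.105). RPN2 was at 109, 241 and 203 (fold 1.02, limma adjusted p = 0.121). The catalytic subunits stood below these partners. STT3A, which acts during translocation, had a fold of 0.71 (54.2 in vector cells, 92.0 and 86.9 in the pools), and STT3B, which can act after it, had 0.82 (65.3, 129 and 104). Of the genes with a pool mean above 50, 75.5% had a lower fold than STT3A and 95.7% a lower fold than DDOST.

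Calnexin and calreticulin, the lectins that hold glycoproteins for folding, were both higher in both pools. CANX (chromosome 5, 179105629 to 179158642) was at 183 in vector cells, 404 in pool 1 and 376 in pool 2, and its 2 table rows carry the same values. Its fold of 1.09 (SE 0.20) did not pass limma (adjusted p = 0.0954, but 0.0256 with a filter at the median and 0.0484 with none), and CANX is the ER gene at least 1 log2 unit higher in both pools. CALR, the most highly covered of the 41, was at 1017, 1753 and 1745, a fold of 0.78 (SE 0.37, limma adjusted p = 0.286). The pools of CALR were closer to each other than to the vector library, and it passed limma with no filter (adjusted p = 0.0090) and with no variance trend (0.0394).

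**Figure D2:**
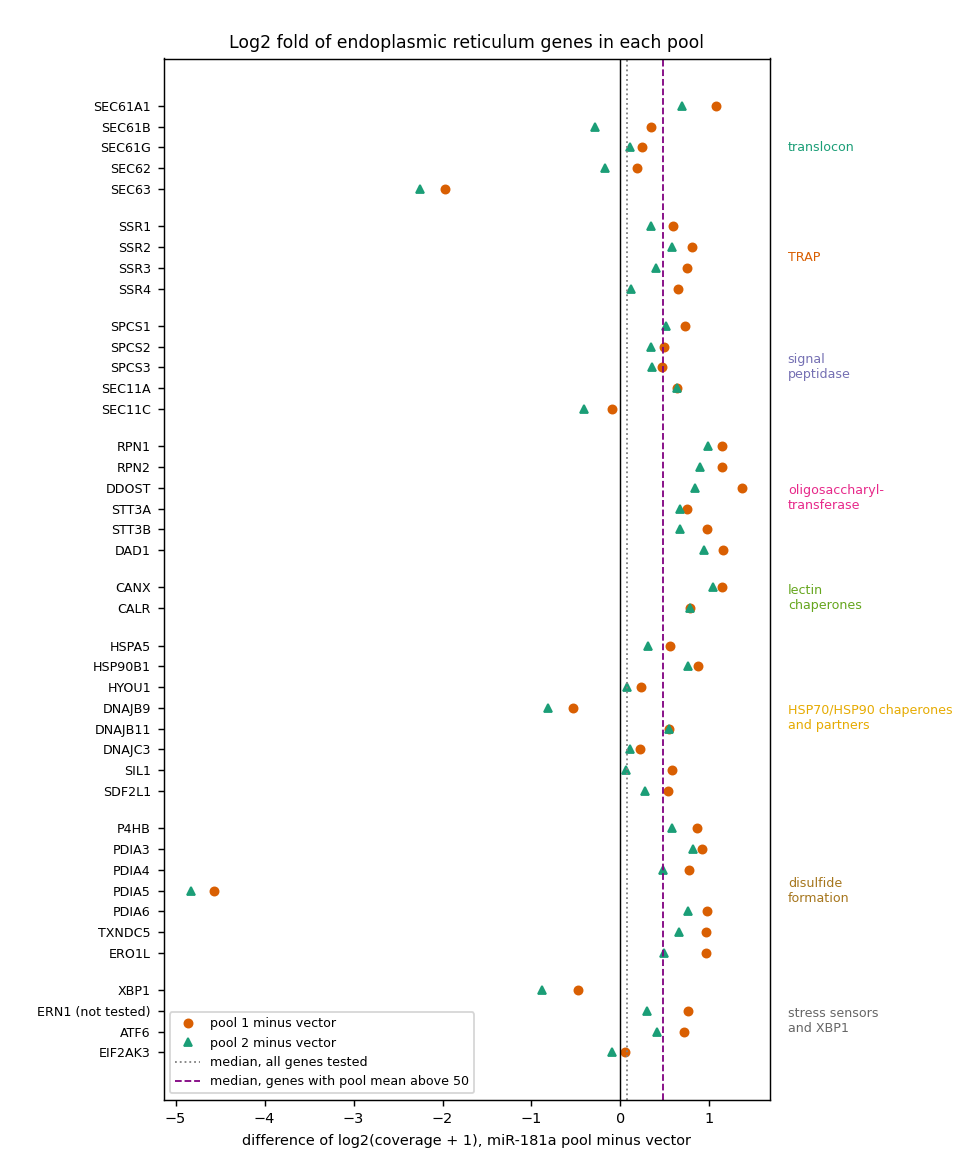
Difference of log2(coverage + 1) from the vector library in pool 1 (circles) and pool 2 (triangles) for the 41 ER genes, with the median of all genes tested (dotted, 0.07) and of genes with a pool mean above 50 (dashed, 0.47). The 6 oligosaccharyltransferase genes shown lie right of the dashed line in both pools, and PDIA5, SEC63, XBP1, DNAJB9 and SEC11C lie left of 0 in both.

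BiP and the chaperones around it were spread from well above to below the vector library. HSPA5, the gene of BiP and the classical reporter of ER stress (chromosome 9, 127997132 to 128003661), was at 381 in vector cells, 560 in pool 1 and 472 in pool 2. Both pools were above the vector library, with a fold of 0.43 (SE 0.26, limma adjusted p = 0.364) that lies below the median of highly covered genes and turned to -0.0395 after the shift. HSP90B1, the ER form of HSP90, was at 318, 582 and 540, a fold of 0.82 (limma adjusted p = 0.17). HSP90B1 therefore stood farther above the vector library than HSPA5 did, although the difference between their folds was not tested.

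The partners of BiP had smaller folds than HSP90B1, and DNAJB11 alone among them had a larger fold than HSPA5. The nucleotide exchange factors HYOU1 and SIL1 had folds of 0.15 and 0.32, and the J-domain co-chaperones DNAJB11 and DNAJC3 had 0.54 and 0.16. HYOU1 was at 87.2 in vector cells, 103 in pool 1 and 91.7 in pool 2. SDF2L1, a partner of DNAJB11, was at 98.5, 143 and 120, a fold of 0.41. DNAJB11 itself was at 73.4, with the same value of 107 in both pools after rounding. DNAJC3, which also restrains PERK, was at 12.9, 15.2 and 13.9, and SIL1 at 22.7, 34.4 and 23.7, so pool 2 of both genes lay close to the vector library. None of these genes passed limma, and HYOU1, SIL1, DNAJC3 and SDF2L1 turned below 0 after the shift, at -0.32, -0.15, -0.31 and -0.0649.

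DNAJB9, a J-domain protein strongly induced by the IRE1 and XBP1 branch, was lower in both pools. Its coverage was 13.99 in vector cells, 9.38 in pool 1 and 7.53 in pool 2, with a fold of -0.67 (SE 0.30, limma adjusted p = 0.277, but 0.0352 with a filter at the median). The fold of DNAJB9 was -0.26 with library medians set equal, -0.0758 with quantile normalization and -1.14 after the shift. For comparison, 14.3% of rows with a pool mean of 1 to 10 had a vector value more than 4 times the pool mean, while that of DNAJB9 was 1.65 times.

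Disulfide isomerases were higher with 1 exception. P4HB, PDIA3, PDIA4, PDIA6 and TXNDC5 form or rearrange disulfide bonds, and their folds were 0.72, 0.86, 0.62, 0.87 and 0.81. P4HB, the founding isomerase and also a subunit of prolyl hydroxylase, was at 456 in vector cells, 828 in pool 1 and 684 in pool 2. PDIA4 was at 271, 463 and 378, and TXNDC5 at 125, 244 and 198. In each of these the pools lay above the vector library and pool 1 above pool 2. PDIA3, the isomerase that works with calnexin and calreticulin on glycoproteins, was at 205 in vector cells, 389 in pool 1 and 362 in pool 2 (limma adjusted p = 0.134). PDIA6 was at 193, 380 and 327 (limma adjusted p = 0.158). In both genes each pool lay above the vector library. ERO1L, the oxidase that recharges the isomerases and the gene with 3 seed matches of miR-181a-5p, was at 35.3, 69.4 and 50.1, a fold of 0.73 (SE 0.32, limma adjusted p = 0.273).

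PDIA5, a less studied isomerase implicated in the activation of ATF6 (chromosome 3, 122785872 to 122944074), had the largest difference of the 41 genes. Its coverage was 305 in vector cells, 11.9 in pool 1 and 9.79 in pool 2. PDIA5 fell by 4.70 on the log2 scale (SE 0.25, limma adjusted p = 0.0102), and it passed limma under every alternative that gave a test. The vector value was 28.1 times the pool mean, and among 8185 table rows with a pool mean of 10 to 50 there were 19 (0.232%) with a vector value more than 20 times the pool mean. PDIA5 has 1 row in the table, so no second transcript is there to compare, and the part of the vector excess in its fall was not tested. Whether high vector values such as those of PDIA5, SEC63 and, further on, GFPT1 stand in the right rows of the deposited table could not be checked from the file. PDIA5 has no seed match of miR-181a-5p in its 3′ UTR of 144 bases.

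**Figure D3:**
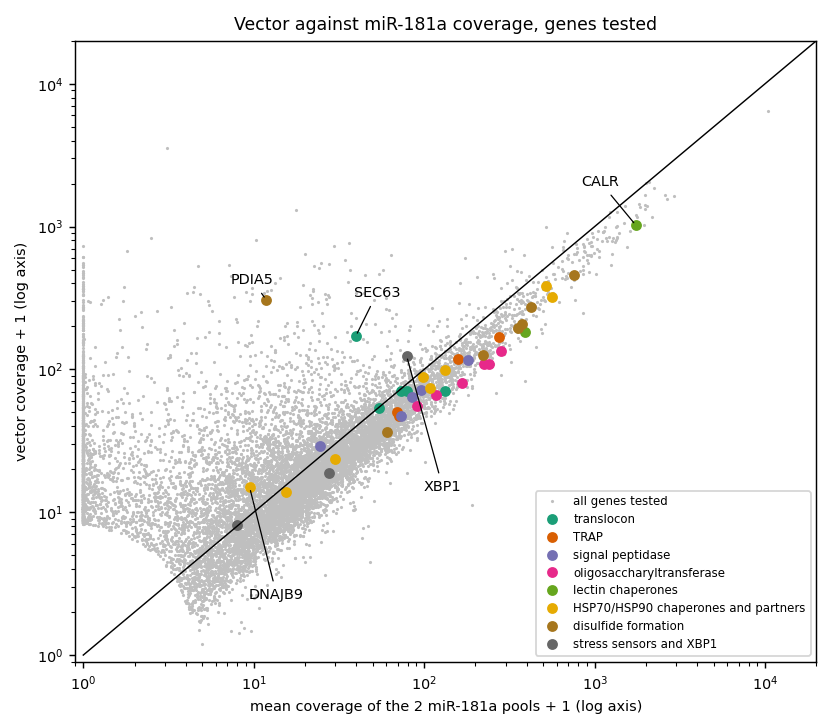
Vector coverage + 1 against the mean coverage of the 2 miR-181a pools + 1 (both log axes) for the 12552 genes tested (grey) and the 40 tested ER genes (coloured by role), with the line of equality. Most ER genes lie just below the line, whereas PDIA5 at 305 against 10.9 and SEC63 at 169 against 38.6 lie far above it.

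The stress sensors and XBP1 did not move as a group. XBP1, whose messenger RNA is spliced by IRE1 to give the active factor (chromosome 22, 29190543 to 29196585), was at 124 in vector cells, 88.8 in pool 1 and 66.8 in pool 2 in its row NM_001079539. In its other row, NM_005080, it was at 112, 95.2 and 70.3. XBP1 was therefore lower in both pools in both rows, with folds of -0.68 (SE 0.29, limma adjusted p = 0.26) and -0.44. A median over windows of 50 bp does not resolve the short IRE1 intron, so no statement on splicing is made.

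The sensors themselves were thinly covered. ATF6 was at 17.7 in vector cells, 29.6 in pool 1 and 23.9 in pool 2, a fold of 0.56 (limma adjusted p = 0.31). EIF2AK3, which encodes PERK, was at 7.13, 7.42 and 6.61, a fold of -0.02 with the vector library between the pools, which turned to 0.40 with library medians set equal and to 1.33 with quantile normalization (limma adjusted p = 0.0229). ERN1, which encodes IRE1, was at 0.625, 1.74 and 0.993 and was below the filter.

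Scaling changed how many ER genes passed the test, and the choice of filter did too. After the shift described here, limma gave PDIA5 an adjusted p of 1.71e-143, which the spread between 2 pools cannot give alone. The fit also draws on a variance shared across genes. Counts of calls under the scalings and filters therefore reflect that variance as well as the folds. The deposited columns differ in their quantiles, and the median fold of all genes tested was 0.07 without scaling, 0.49 with library medians set equal, 0.47 with quantile normalization and -0.40 when each pool was shifted by the median fold of genes with a pool mean above 50. Under that shift, which also removes the general offset of pool 1 from pool 2, 8 ER genes rose (5.66% of all genes did) and 7 fell (46.1% of all genes did) by limma. The 8 were DDOST, CANX, RPN1, DAD1, RPN2, SEC61A1, PDIA6 and PDIA3, with folds of 0.63, 0.62, 0.59, 0.58, 0.55, 0.41, 0.39 and 0.39. The 7 were PDIA5, SEC63, XBP1, DNAJB9, SEC11C, SEC62 and SEC61B, with folds of -5.17, -2.58, -1.15, -1.14, -0.72, -0.46 and -0.44. The 8 include 4 of the 6 oligosaccharyltransferase genes, and the 7 include 3 of the 5 translocon genes. With library medians set equal, 34 ER genes rose (50.6% of all genes did) and 2 fell (29.5%). With quantile normalization 18 rose (37.7%) and 3 fell (24.7%).

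The genes carrying the printed sequences were compared with the rest by count and median alone. Of the 12 genes with a seed match, 11 were higher in both pools and none lower, with SEC62 split, and the median fold was 0.65, against 0.55 in the 28 tested genes without one. Over all genes tested the medians were 0.08 with a match and 0.07 without. Higher in both pools were 75% of the 28 ER genes without a match, 45.2% of all genes tested with a match and 44.8% of those without. Of genes with a pool mean above 50, 80.8% with a match and 76.8% without were higher in both pools. HSP90B1, HYOU1, DNAJC3 and ERO1L, which hold the match of 8 bases, had folds of 0.82, 0.15, 0.16 and 0.73. Of the 6 genes with an ERSE, CANX, PDIA6, HSP90B1, CALR and HSPA5 were higher in both pools and XBP1 was lower, with a median of 0.80. All 6 had a pool mean above 50, a class in which 77.5% of genes were higher in both pools and the median fold was 0.47. HYOU1 and SDF2L1, with ERSE-II, had folds of 0.15 and 0.41. The 8 genes with either element had a median of 0.61 and spanned -0.68 to 1.09. Of the 5 genes with UPRE, 4 were higher in both pools and SEC62 was split, with a median of 0.38.

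Other steps of the pathway showed folds of the same order. For comparison with the counts below, 44.6% of all genes tested and 77.5% of those with a pool mean above 50 were higher in both pools. In the signal recognition particle and its receptor, which bring ribosomes to the channel, none of 8 genes passed limma (median 0.21). SRP72 was at 41.9 in vector cells and 63.1 ± 3.57 (SD, n = 2) in the pools, and SRP19 at 65.7 and 28.0 ± 7.20 (SD, n = 2). Among 9 further translocation and oligosaccharyltransferase genes (median 0.46), SEC61A2, the paralogue of the pore gene, fell from 126 to 17.6 ± 3.51 (SD, n = 2, limma adjusted p = 0.0379), but its fold of -2.78 was -1.60 with the mean of its rows (limma adjusted p = 0.103), and the call was also lost with no filter (0.0528) and no variance trend (0.0736). TUSC3, an oxidoreductase subunit of the transferase, had a fold of 0.82 without passing. It was the highest of the further transferase genes, and KRTCAP2, OSTC, OST4, C11orf10 and MAGT1 had folds of 0.61, 0.59, 0.46, 0.16 and -0.0005.

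Synthesis of the lipid-linked sugar precursor had a median fold of 0.39 over 24 tested genes, of which 16 were higher in both pools, 1 fell and none rose. That gene was GFPT1, which makes the amino sugar used for glycans, at 526 in vector cells and 21.5 ± 3.63 (SD, n = 2) in the pools (limma adjusted p = 0.0117). ALG10, a late glucosyltransferase with a near-identical copy, ALG10B, was at 32.7 and 10.5 ± 0.272 (SD, n = 2), so its reads may be shared with the copy. It did not pass limma (adjusted p = 0.0848), but did with a filter at the median (0.0116), a pseudocount of 10 (0.0371), no variance trend (0.0228) and no filter (0.0273). In N-glycan trimming, 8 of 9 genes were higher in both pools (median 0.71) and none passed. GANAB, the glucosidase II catalytic subunit, was at 129 and 240 ± 36.8 (SD, n = 2), and the mannosidase gene MAN1B1 at 25.3 and 48.9 ± 8.32 (SD, n = 2).

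ER-associated degradation, which returns misfolded proteins to the cytosol, had 17 of 22 genes higher in both pools (median 0.64), and none passed limma. The lectin gene OS9 was at 45.9 in vector cells and 109 ± 6.90 (SD, n = 2) in the pools (fold 1.23, limma adjusted p = 0.0663), and EDEM1, which directs glycoproteins to degradation, at 6.27 and 15.4 ± 0.543 (SD, n = 2). With a filter at the median 3 genes of the list rose (402 of all 8368 genes tested did), OS9 (limma adjusted p = 0.0102) and EDEM1 (0.00249) among them. EDEM1 also passed with no filter (0.0356) and no variance trend (0.0393). The vector value of EDEM1 lies below the filter at the median. With that filter EDEM1 was therefore tested only through its pools and had to come out higher. Of 13 tested stress transcription factors and response genes (median 0.42), 7 were higher in both pools and 4 lower. MBTPS1 and PPP1R15B had the highest folds, 1.20 and 1.04, ATF4 and DDIT3 had 0.43 and 0.26, and ATF3 and CHAC1 had the lowest. ATF3 was at 27.5 in vector cells and 1.65 ± 0.573 (SD, n = 2) in the pools. Its pool mean lies below the filter, so it was tested only through its vector value and had to come out lower, and with the row chosen by pool mean it was not tested. CHAC1 was at 25.2 in vector cells, 16.3 in pool 1 and 4.29 in pool 2, and it passed limma with a filter at the median (adjusted p = 0.00075, against 0.414).

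Among 23 tested further isomerases and folding factors (median 0.71), 17 were higher in both pools, and the highest folds were those of FKBP11 (1.72), FKBP14 (1.18) and TMX3 (1.14). By limma none of the list rose and 3 genes came out lower. The 3 lower genes were ERO1LB, PDILT and ERP27, whose pool means lie below the filter, so they passed it only through the vector library and had to come out lower. ERO1LB, the paralogue of ERO1L, was at 11.04 in vector cells and 2.10 ± 0.0255 (SD, n = 2) in the pools. PDILT, a testis isomerase (154 in vector cells), and ERP27 (9.52) were both at 0 in the 2 pools. With a filter at the median, 3 other genes of this list rose (402 of all 8368 genes tested did). None of 12 genes of the COPII coat, which carries cargo out of the ER, passed limma (median 0.38). SEC23A was at 41.9 and 74.9 ± 15.4 (SD, n = 2), and SAR1A at 33.8 and 57.9 ± 2.94 (SD, n = 2).

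**Figure D4:**
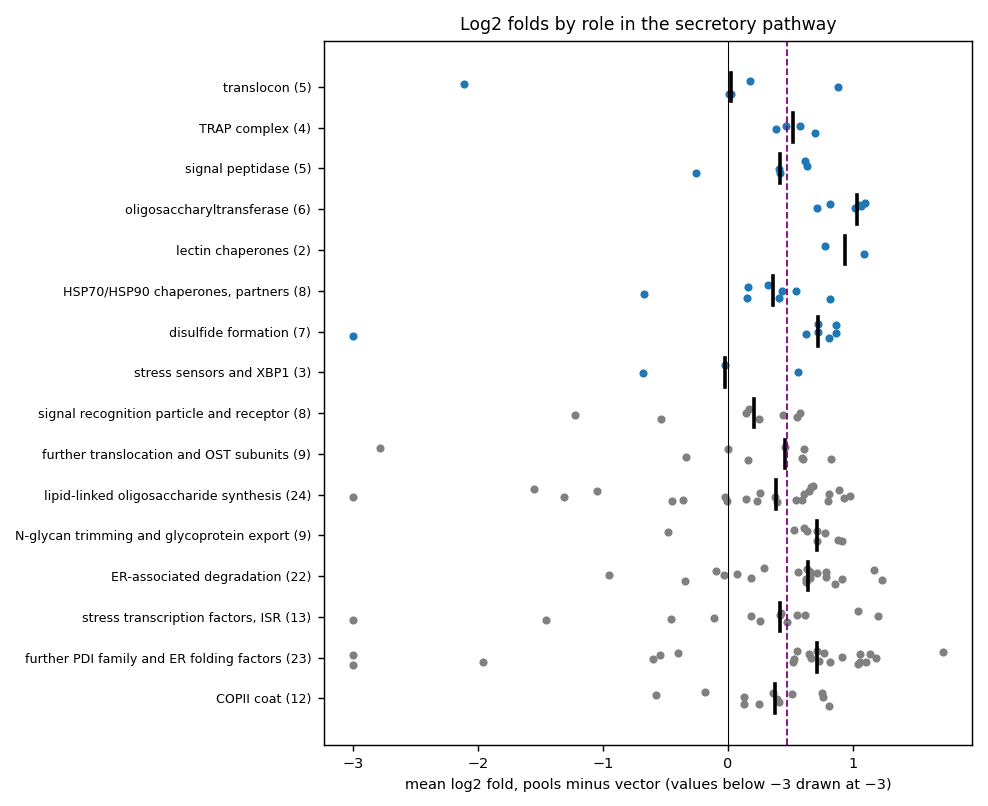
Mean log2 fold (pools minus vector) of each tested gene in the 8 role groups of the ER genes (blue) and in 8 further lists of the pathway (grey), with list medians as black bars, the median of genes with a pool mean above 50 as a dashed line (0.47) and values below -3 drawn at -3. The median of 1.04 in the list named oligosaccharyltransferase is the highest of the 16 lists, and further subunits of that enzyme stand in a grey list with a median of 0.46. Isolated points below -1 occur in 5 of the further lists.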

How the data were processed

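Poly-A RNA of 3 libraries was sequenced as 100 nt reads, mapped to hg19 and summarised per RefSeq transcript as the median coverage signal of sliding 50 bp windows by the authors, per the labels' protocols. The aligner is not given in the sources used here. Log transformation and quantile normalization are named there too, yet the deposited values are linear with unequal quantiles, so they were taken as unscaled coverage.

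The table has 29156 rows. Symbols changed to dates (54 rows) were restored by accession in 52, and 308 rows with a blank vector value were left out, which left 28848 rows and 18674 genes. Each gene was represented by its most covered row. After the lowest 25% of non-zero gene means was removed, 12552 genes were fitted as log2(coverage + 1) with limma 3.58.1 (R 4.3.3), 2 miR-181a libraries against 1 control, using eBayes with variance trend and Benjamini-Hochberg adjustment at 0.05. The control is taken to have the same spread as the pools. The fit was tested on simulated data in which every library had the same spread. Such data cannot show whether the control varies as the pools do. Sequence searches used Python 3.11.15.

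Every member is named. In each other list the 2 largest folds shared by both pools, and up to 4 genes past the test, are named. Further folds were added in some lists after the values were seen. The rule that gave the members holds no measured value. The members and lists were nevertheless chosen with earlier results of these data known. Alternatives covered filter, pseudocount, scaling, row choice, variance trend, size rule and each pool left out.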

Additional observations from a re-analysis of the deposited data

How the results depend on the processing

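Of all genes tested, 126 rose and 2725 fell by limma, 278 and 5626 with no filter, 402 and 1476 with a filter at the median, and 710 and 5784 after the shift by genes above 50. With library medians set equal 6355 rose and 3701 fell, and with quantile normalization 4730 and 3096. Of the ER genes 0 rose and 2 fell, 2 and 1 with no filter or with no variance trend, 5 rose with a filter at the median, 34 with medians set equal, 18 with quantile normalization, 8 after the shift, where 7 fell, and 1 fell with a pseudocount of 10. Higher and lower in both pools were 32 and 5, and 20 and 13 after the shift. Leaving out a pool gave 32 to 35 higher, 5 to 8 lower and 1 to 6 at least 1 log2 unit higher (6 with pool 1 alone, against 1). At least 1 log2 unit higher were 17 with medians set equal, 6 with quantile normalization and 0 after the shift, where 4 were lower, and 18 were higher at 0.5 unit. The median fold of 0.57 was 0.99 with medians set equal and 0.10 after the shift.

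After the shift SEC61B turned to -0.44, SEC61G to -0.30, SEC62 to -0.46, SSR1 to -0.0065, SSR4 to -0.0884, SPCS2 to -0.0554, SPCS3 to -0.0622, HSPA5 to -0.0395, HYOU1 to -0.32, DNAJC3 to -0.31, SIL1 to -0.15 and SDF2L1 to -0.0649. With medians set equal SEC11C turned to 0.16 and EIF2AK3 to 0.40, and with quantile normalization to 0.0187 and 1.33. With either pool alone SEC61B ranged from -0.29 to 0.34, SEC62 from -0.18 to 0.19 and EIF2AK3 from -0.0943 to 0.0513. The cause was not tested. No paired analysis was possible because the vector group has 1 library. Depth is unknown, so no limit from it can be set.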

Other observations

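PMM2 and SELENOF, genes of the glycosylation lists, have pool values but a blank vector value and entered no comparison, and they were chosen for mention after their values were seen. PMM2, a phosphomannomutase that supplies mannose for glycans, was at 15.4 in pool 1 and 10.7 in pool 2. SELENOF, a selenoprotein bound to the glycoprotein folding sensor UGGT, had 2 rows, at 127 and 111 in one and 158 and 116 in the other.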
